A study of Homo sapiens with 6 samples.

Results

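The chromosome 19 miRNA cluster, C19MC, was read through 36 miRNA names and 73 of the 2997 probes in the deposited table, of which 1741 had human miRNA names. A probe was taken when it carried a human name and when that name, without species prefix, arm, star, copy number or precursor suffix, was 1 of 36 miRNA names of the cluster. All 36 names were found, among them miR-498, miR-512, miR-521, miR-527 and miR-1283. The probes divided into 57 that were named for a mature miRNA and 16 whose names end in P, called precursor-named here because the sources used here do not explain the suffix. The probe hsa-miR-517*, which gives no locus letter, was not taken by this rule.

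HCT-116, an epithelial cell line from a human colorectal carcinoma, received 1 of 3 transient transfections, empty vector (mock), Uc283+a overexpression variant 1 or Uc283+a overexpression variant 2. Uc283+a is a long noncoding RNA whose gene lies in genomic sequence kept identical between distant mammals. Variant 1 has a run of 8 T and variant 2 a run of 9 T. Each group had 2 arrays, every array held 1 sample, and the comparison asks which miRNAs respond to the RNA. The labels do not say whether the arrays of a group hold RNA of separate cultures, and each p-value therefore reflects only how these samples varied, possibly for technical reasons. Every group was a pool of transiently transfected cells of 1 line, and fewer cells with a miRNA cannot be told apart from less of it per cell.

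C19MC is a primate-specific cluster of tandemly repeated miRNA genes, expressed from the paternal allele, mainly in the trophoblast of the placenta and in some pluripotent cells. Its miRNAs are usually silent in adult epithelia and have been described as reactivated in some tumours. A miRNA recognises its targets mainly through its seed, bases 2 to 8 from the 5′ end, and several C19MC seeds are the same as those of the embryonic miR-302 and miR-372 miRNAs or of the proliferation-associated miR-17 family.

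RefSeq sequences of the human assembly GRCh38.p14 were matched to 54 of the 57 mature-named probes and to 14 of the 16 precursor-named probes, through a table of old and current arm names. The unmatched probes were hsa-miR-518f, hsa-miR-522, hsa-miR-527, hsa-mir-498-P and hsa-mir-520f-P. The matched mature-named probes stood for 45 distinct sequences with 26 seeds. The 42 hairpins found for these miRNAs in RefSeq all lay on the plus strand, between positions 53666679 and 53762430 of chromosome 19, a stretch of 95.8 kb. The hairpins of miR-498, miR-517a and miR-520f were not among them. Over the 42 hairpins, the median identity of a hairpin to the others had a median of 77.9% and ran from 54.3% to 82.8%, and 38 of 42 had a partner with at least 85% identity. The miRNAs below are shown because the results turn on them, with the seed in capitals.
hsa-miR-498-5p: uUUCAAGCcagggggcguuuuuc
hsa-miR-512-3p: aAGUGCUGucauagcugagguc
hsa-miR-1283: uCUACAAAggaaagcgcuuucu
hsa-miR-524-3p: gAAGGCGCuucccuuuggagu
hsa-miR-516a-3p: uGCUUCCUuucagagggu
hsa-miR-516a-5p: uUCUCGAGgaaagaagcacuuuc
hsa-miR-519e-5p: uUCUCCAAaagggagcacuuuc
hsa-miR-520d-5p: cUACAAAGggaagcccuuuc
hsa-miR-519a-5p: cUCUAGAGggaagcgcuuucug
hsa-miR-526a-5p: cUCUAGAGggaagcacuuucug
hsa-miR-517a-3p: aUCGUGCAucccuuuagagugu
hsa-miR-518b: cAAAGCGCuccccuuuagaggu

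The miR-498 sequence lies at chr19:53674230-53674252, that of miR-524-3p at chr19:53711054-53711074, that of miR-519e-5p at chr19:53679953-53679974 and that of miR-520d-5p at chr19:53720111-53720130. miR-512-3p is encoded at 2 loci, chr19:53666729-53666750 and chr19:53669213-53669234, at the 5′ end of the cluster. miR-1283 is also encoded at 2 loci, chr19:53688494-53688515 and chr19:53758245-53758266. Among the 45 distinct mature sequences, the identity of a sequence to its closest member had a median of 87.5% and a maximum of 95.5%. It was lowest, at 62.5%, for miR-498-5p and miR-512-5p.

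hsa-miR-498 was the single C19MC probe with a signal above background on all 6 arrays. Background was set on each array at the 95th percentile of its 38 random-sequence probes, which lay at a log2 signal of 6.86 and 6.81 in mock cells, 6.76 and 6.94 with variant 1, and 7.27 and 6.75 with variant 2. By this measure 1 of 73 members (1.37%) was above background, against 386 of the 1668 other human miRNA probes (23.1%). Of the other members, 58 were above background on no array, 10 on 1 array, 3 on 2 arrays and 1, hsa-mir-521-2-P, on 3 arrays.

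hsa-miR-498 gave log2 signals of 9.88 and 10.89 with mock, 11.09 and 11.62 with variant 1, and 10.65 and 10.66 with variant 2. Its mean over the 6 arrays, 10.80, ranked 95th of the 1773 tested probes, and its rank on single arrays ran from 60 to 171. The precursor-named probe hsa-mir-498-P gave 6.49 and 6.24 with mock, 6.15 and 6.45 with variant 1, and 7.03 and 6.11 with variant 2, below background on every array. The mature sequence of miR-498, printed above, holds a run of 5 G in its middle. The longest G run in any other matched member was 3, and 72 of 2370 mature miRNA names in RefSeq (3.04%) have a run of 5 or more. The sequence of the probe itself was not used here, and the part of the G run in the signal was not tested.

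The other 72 members lay at the level of the random-sequence probes. Their means over the 6 arrays ran from 5.39 to 6.98. The median of all members was 6.02, against 6.14 for the random-sequence probes and 6.46 for the other human miRNA probes. On single arrays the median of the members was between 6.04 and 6.23, and that of the random-sequence probes between 6.10 and 6.35. Of the 72 members other than hsa-miR-498, between 0 and 6 (0% to 8.33%) were above background on any 1 array. The share was 25.5% to 42.7% of all tested probes, and 5.26% of the random-sequence probes by the definition of background.

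**Figure D1:**
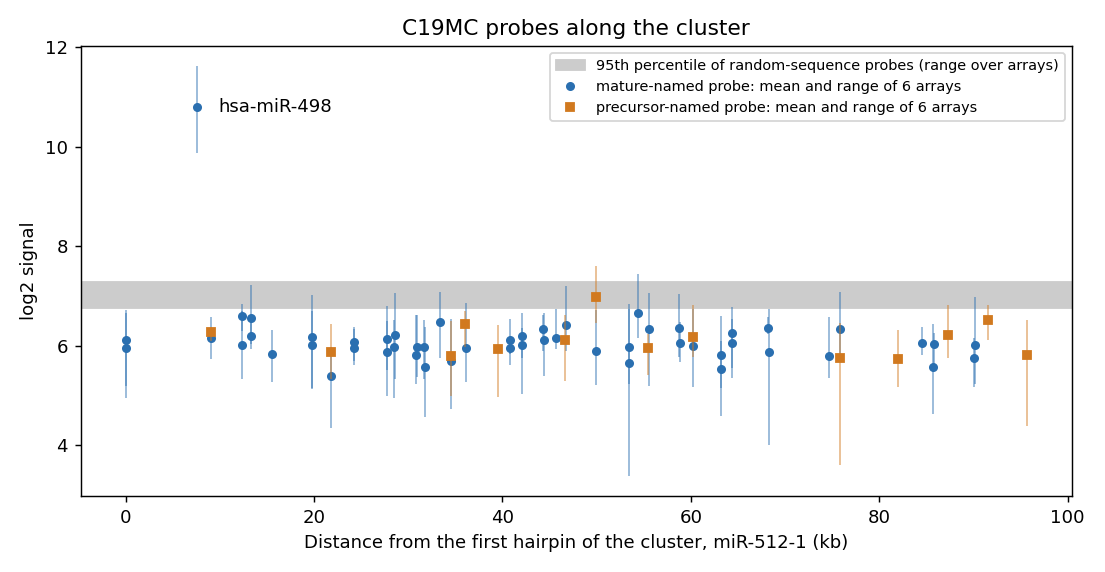
Log2 signal of C19MC probes (vertical axis) against the distance of their hairpin from the first hairpin of the cluster in kb (horizontal axis), with the mean and the range of 6 arrays for each probe and the range of the random-sequence 95th percentile over arrays as a grey band. hsa-miR-498, at 10.80, stands above the band, and the means of the other probes lie in it or under it.

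After hsa-miR-498, the highest means belonged to hsa-mir-521-2-P (6.98), hsa-miR-517b (6.65), hsa-miR-515-3p (6.60), hsa-miR-519e* (6.56) and hsa-miR-1283-2-P (6.51). They were followed by hsa-miR-518f* (6.47), hsa-mir-518b-P (6.44), hsa-miR-519d (6.43) and hsa-mir-498-P (6.41). hsa-mir-521-2-P had 7.60 and 6.79 with mock, 7.51 and 6.55 with variant 1, and 6.47 and 6.95 with variant 2, so that 1 array of every group was above background and 1 was not. Ranks and means of different probes, here and for hsa-miR-498, describe probe signals and do not order the amounts of the miRNAs.

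The 2 arms of the hairpins gave like pictures. None of the 27 probes for a 3p arm was above background, and 1 of the 22 probes for a 5p arm was, hsa-miR-498. These counts leave out the unmatched mature-named probes and hsa-miR-1283, hsa-miR-518b, hsa-miR-520h, hsa-miR-521 and hsa-miR-526a, which were matched without an arm. The median of the means was 6.04 for the 3p probes and 6.06 for the 5p probes. For 13 names the array carried both a mature-named and a precursor-named probe, in 17 pairs, and the pair of miR-498 was the one pair with a probe above background.

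miR-512, from the first hairpins of the cluster, and miR-527 had 4 probes between them. hsa-miR-512-3p gave 5.90 and 6.46 with mock, 4.95 and 5.50 with variant 1, and 6.72 and 6.24 with variant 2. hsa-miR-512-5p, from the other arm, gave 5.19 and 6.57 with mock, 6.34 and 6.09 with variant 1, and 5.79 and 6.67 with variant 2. hsa-miR-527 gave 6.59 and 6.44 with mock, 6.06 and 6.10 with variant 1, and 5.29 and 6.40 with variant 2. All 18 of these values were below background on their arrays. hsa-mir-527-P gave 5.76 and 6.47 with mock, 6.81 and 6.22 with variant 1, and 6.24 and 5.77 with variant 2, and 1 of its variant 1 arrays was above background.

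The signals of the 72 members other than hsa-miR-498 were at most weakly correlated from array to array. Across these probes, which are not independent replicates, the Pearson correlation was between -0.02 and 0.30 for 2 arrays of the same group. For arrays of different groups it was between -0.08 and 0.22. The random-sequence probes gave 0.23 to 0.45 within groups and -0.30 to 0.44 between groups, and all tested probes, which span the full range of signal, gave 0.91 to 0.92 within groups. On each array the 72 members had an SD of 0.54 to 0.62 and the random-sequence probes one of 0.51 to 0.64.

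Seeds placed the mature-named members in groups, 5 of which held at least 3 probes. The group with the seed UCUAGAG, from 5p arms, held 10 probes, of which hsa-miR-518f* was the brightest with a mean of 6.47. The group AAGUGCU held 5 probes and hsa-miR-520e had its highest mean, 6.17. In the group AAAGCGC, with 4 probes, the highest mean was that of hsa-miR-518a-3p (6.27). In the group AAGUGCA, with 3 probes, it was that of hsa-miR-519b-3p (6.22). The group of miR-517a, printed above, also had 3 probes, and hsa-miR-517b was its brightest (6.65). No probe of these 5 groups was above background on all 6 arrays.

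miRNAs from elsewhere in the genome with the same seeds are shown beside C19MC members, with the seed in capitals and the rest of the molecule in lower case. miR-17-5p lies at chr13:91350618-91350640 and miR-372-3p at chr19:53787931-53787953, in the miR-371 cluster, which starts 25.2 kb beyond the last C19MC hairpin.
hsa-miR-519d-3p: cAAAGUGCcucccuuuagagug
hsa-miR-526b-3p: gAAAGUGCuuccuuuuagaggc
hsa-miR-17-5p: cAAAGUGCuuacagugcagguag
hsa-miR-520b-3p: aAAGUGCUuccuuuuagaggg
hsa-miR-520e-3p: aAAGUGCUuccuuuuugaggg
hsa-miR-372-3p: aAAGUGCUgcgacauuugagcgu

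Members and outside miRNAs with the seed of miR-17 differed in detection. hsa-miR-519d and hsa-miR-526b* were below background, with 0 of 2 above it, whereas 6 of 6 probes for miR-17, miR-20a, miR-20b, miR-93, miR-106a and miR-106b were above background, with means from 9.32 to 11.1. With the seed of miR-372, none of 5 members was above background on any array. None of 6 probes for miR-302a, miR-302b, miR-302c, miR-302d, miR-372 and miR-373 was above it on all 6 arrays. Among them, hsa-miR-302b and hsa-miR-373 were above it on 2 arrays each, and hsa-miR-302d and hsa-miR-372 on 1 each. The counts are descriptions, and the mature sequences of each group differ outside the seed.

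**Figure D2:**
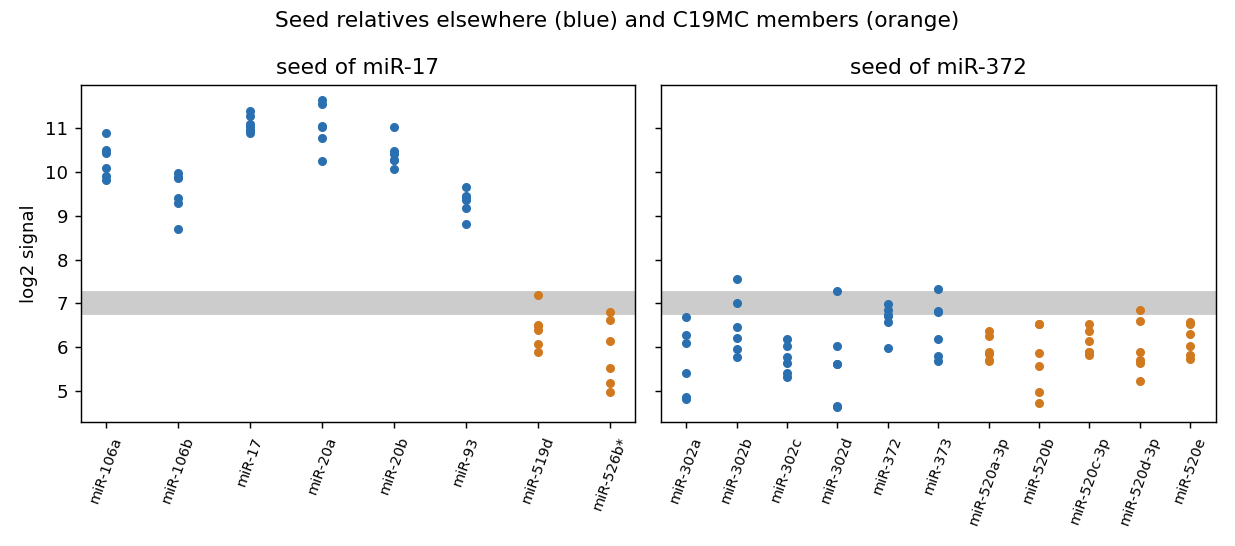
Log2 signal on each of 6 arrays (vertical axis) for C19MC members (orange) and miRNAs from elsewhere with the same seed (blue), in 1 panel for the seed of miR-17 and 1 for the seed of miR-372. The 6 outside probes with the miR-17 seed have means of 9.32 to 11.1, and every other group of points lies near the random-sequence level.

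The neighbouring miR-371 cluster, expressed with C19MC in pluripotent cells, had 3 of 6 probes above background on all arrays. These were hsa-miR-373* (mean 10.67), hsa-miR-371-3p (10.46) and hsa-miR-371-5p (9.76). As in miR-498, a run of 5 G stands in the mature sequences of hsa-miR-371-5p and hsa-miR-373*, and none does in that of hsa-miR-371-3p. Of the probes for miR-200 family members, which mark epithelial cells, 3 of 10 were above background, as were 0 of 7 for intestinal epithelial, 1 of 10 for haematopoietic and 1 of 10 for muscle miRNAs. Of 16 probes for miRNAs of pluripotent cells, which include the miR-371 cluster, 3 were above background, the 3 just named. The miRNAs that define intestinal epithelium, miR-192, miR-194 and miR-215, were thus not above background on all 6 arrays in this colorectal line. hsa-miR-192 (7.02) and hsa-miR-194 (6.89) were each above it on 1 mock array.
hsa-miR-371a-5p: aCUCAAACugugggggcacu
hsa-miR-373-5p: aCUCAAAAugggggcgcuuucc
hsa-miR-371a-3p: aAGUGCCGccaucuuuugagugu

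No C19MC probe passed the threshold of a limma adjusted p of 0.05 when both variants were compared with mock, and neither did any of the 1773 tested probes (0%). The adjusted p of every member was at least 0.975. hsa-miR-498, the member above background, had means of 10.39 ± 0.714 with mock (SD, n = 2) and 11.00 ± 0.456 with both variants (SD, n = 4). Its difference was 0.62 on the log2 scale (SE 0.392, 95% interval -0.27 to 1.51), with a limma p of 0.151 and an adjusted p of 0.975. One mock array was below all 4 variant arrays and the other lay among them, so the groups overlapped. The value rested on the mock arrays, since it was 0.11 without the lower and 1.12 without the higher of them. The spacer control probe was also lowest on that mock array, at 11.33, against 11.64 to 12.11 on the other mock and the variant 2 arrays and 12.14 to 12.59 on the variant 1 arrays. The other control probes were divided. The probe blank2 was also lowest on that array. The GAPDH probe (8.94 against 6.22 to 7.58 elsewhere) and the small nucleolar RNA probe U44R (10.81 against 9.72 to 10.51) were highest on it. The small nucleolar RNA probes U44L, U48L and U48R and the probe Blank were neither highest nor lowest on it. The part of these shifts in the result was not tested.

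**Figure D3:**
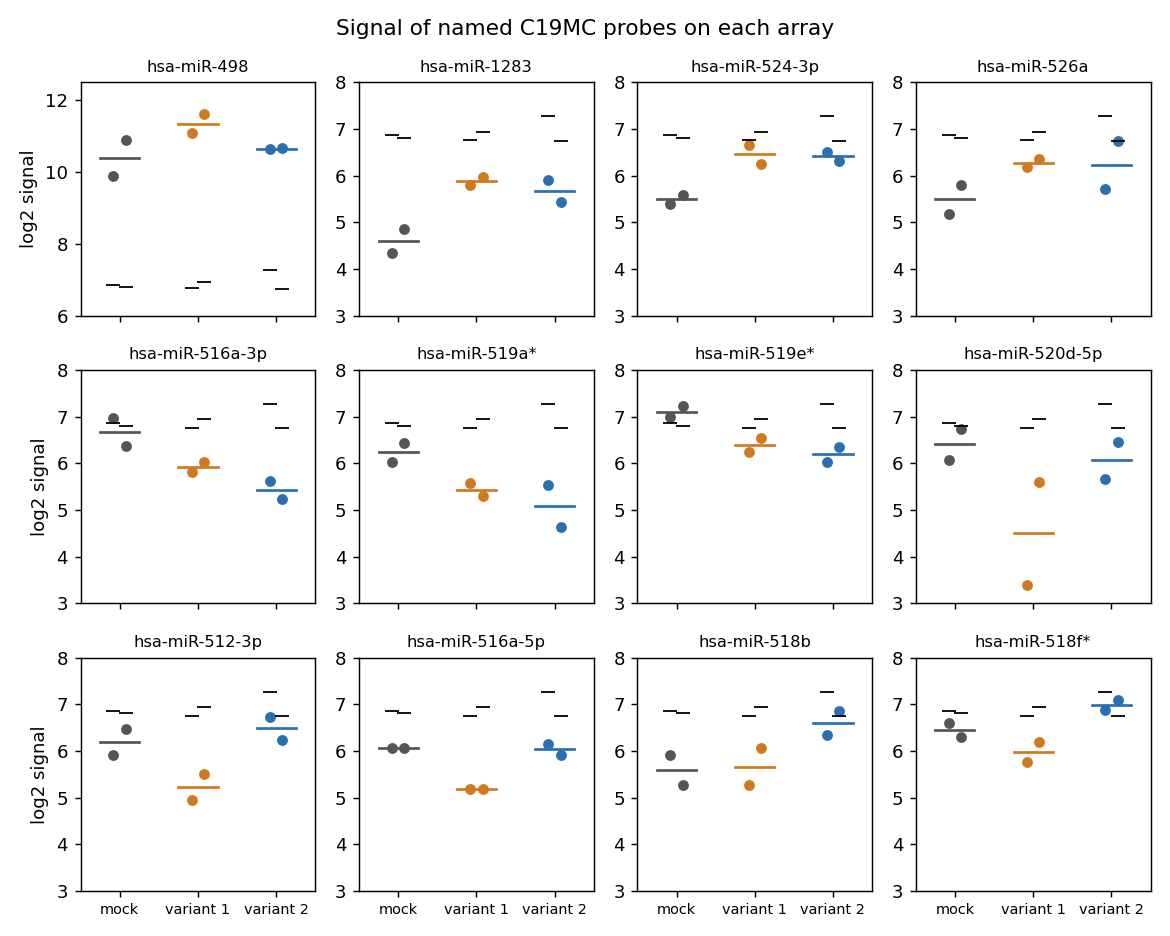
Log2 signal of named C19MC probes on each array (points, vertical axis), in mock, variant 1 and variant 2 cells with 2 arrays per group (horizontal axis), each probe in its own panel. hsa-miR-498 lies between 9.88 and 11.62, and the other probes lie near or below the random-sequence level, down to 3.39 for hsa-miR-520d-5p on 1 variant 1 array.

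Without adjustment, 5 of 73 members (6.85%) had a limma p below 0.05 for both variants against mock, against 4.62% of all tested probes. Of these members 2 were higher and 3 lower, beside 2.2% higher and 2.43% lower over all tested probes. The arrays of the groups did not overlap for 8 members (11.0%), against 13.3% of all tested probes. They were 3 higher (4.11%) and 5 lower (6.85%), against 6.54% and 6.71%. The median difference of the members was 0.03, with a range from -1.12 to 1.18, beside a median of -0.01 over all tested probes. A difference above 0 was found for 40 of 73 members, and for 49.4% of all tested probes. The mature-named members had a median of 0.05 and the precursor-named members one of 0.00.

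hsa-miR-1283 had the smallest p of the members. Its signals were 4.35 and 4.85 with mock, 5.79 and 5.98 with variant 1, and 5.92 and 5.44 with variant 2. Both mock arrays were thus below all variant arrays, but all 6 values were also below the median of the random-sequence probes on their arrays, so the difference compares signals and does not measure a change in the miRNA. On the log2 scale it was 1.18 (SE 0.346, limma p 0.00799, adjusted p 0.975). The precursor-named probes of its 2 loci did not show it. hsa-miR-1283-1-P gave 6.19 and 5.61 with mock, 5.61 and 5.34 with variant 1, and 6.11 and 6.44 with variant 2. hsa-miR-1283-2-P gave 6.67 and 6.49 with mock, 6.75 and 6.23 with variant 1, and 6.81 and 6.11 with variant 2, so that in both the groups overlapped.

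The next probes with a higher signal in the variants were also below background. hsa-miR-524-3p had 5.40 and 5.59 with mock, 6.66 and 6.25 with variant 1, and 6.51 and 6.32 with variant 2, a difference of 0.94 (SE 0.329, limma p 0.0194) without overlap. hsa-miR-526a had 5.18 and 5.80 with mock, 6.20 and 6.36 with variant 1, and 5.71 and 6.73 with variant 2, a difference of 0.76 (SE 0.400, limma p 0.0910), and its groups overlapped. Without the lower mock array the difference of hsa-miR-526a was 0.45, and without the higher it was 1.07. Neither passed the threshold after adjustment.

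Among the probes with a lower signal in the variants, hsa-miR-516a-3p had 6.98 and 6.37 with mock, 5.81 and 6.03 with variant 1, and 5.63 and 5.23 with variant 2. Its difference was -0.999 (SE 0.350, limma p 0.0195), and 1 mock array was just above background. hsa-miR-519a* had 6.04 and 6.44 with mock, 5.57 and 5.29 with variant 1, and 5.53 and 4.63 with variant 2, a difference of -0.98 (SE 0.378, limma p 0.0295). hsa-miR-519e* had 6.99 and 7.23 with mock, both above background, and 6.24, 6.54, 6.04 and 6.35 with the variants, all below it. Its difference was -0.81 (SE 0.329, limma p 0.0360, adjusted p 0.975). The groups did not overlap in any of these 3 probes, and none passed the threshold after adjustment.

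**Figure D4:**
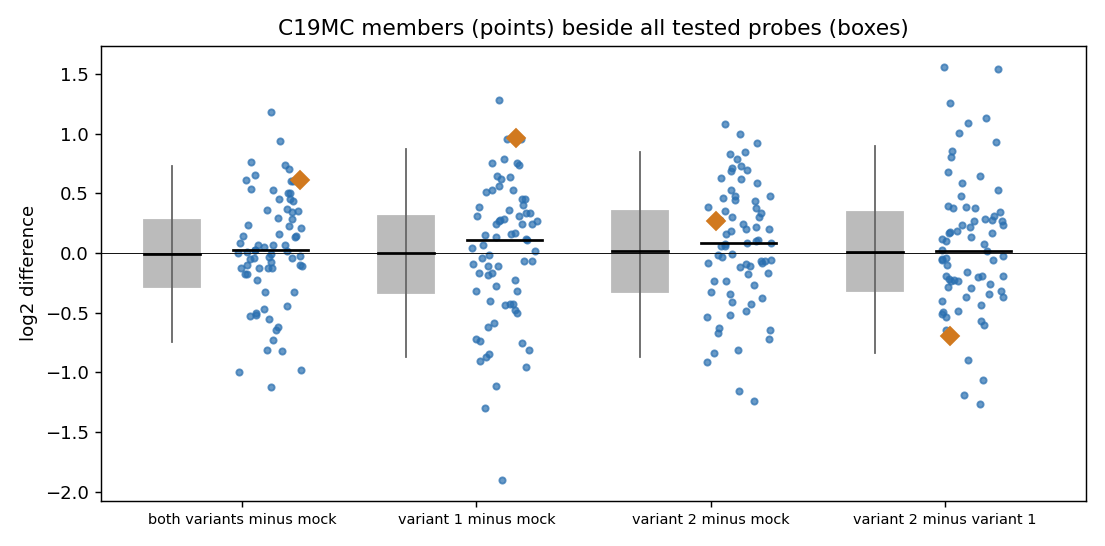
Log2 differences of the C19MC members (points) and of all 1773 tested probes (boxes) in the 4 comparisons (horizontal axis). The members spread around 0 in each comparison, with medians of 0.03, 0.11, 0.08 and 0.02.

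Against mock, variant 1 gave no member past the threshold, and 0% of all tested probes passed. hsa-miR-498 had a mean of 11.35 ± 0.374 (SD, n = 2) with variant 1, and both arrays were above both mock arrays. The difference was 0.96 (SE 0.452, 95% interval -0.06 to 1.99), with a limma p of 0.0629 and an adjusted p of 0.960. Without 1 mock array or 1 variant 1 array at a time, it ran from 0.46 to 1.47.

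Unadjusted, 4 of 73 members (5.48%) had a limma p below 0.05 for variant 1, against 4.12% of all tested probes. They were 2 higher and 2 lower, beside 1.92% higher and 2.2% lower over all tested probes. The arrays did not overlap for 32 members (43.8%), against 33.8% of all tested probes. In 14 members (19.2%) the variant 1 arrays were higher, against 16.5%, and in 18 (24.7%) lower, against 17.3%. The median difference was 0.11, from -1.90 to 1.28, beside 0.00 over all tested probes, and 40 of 73 members were above 0, against 50.1%. The median was 0.15 over the mature-named and -0.08 over the precursor-named members.

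hsa-miR-1283, whose signals are given above, differed by 1.28 (SE 0.399, limma p 0.0110) for variant 1 and hsa-miR-524-3p by 0.96 (SE 0.380, limma p 0.0332). hsa-miR-520d-5p had 6.07 and 6.74 with mock, 3.39 and 5.61 with variant 1, and 5.67 and 6.45 with variant 2. Its difference for variant 1 was -1.90 (SE 0.688, limma p 0.0225), and 1 variant 1 array, at 3.39, stood far below the other. Without that array the difference was -0.79, and without the other variant 1 array it was -3.02. hsa-miR-516a-5p had 6.05 and 6.06 with mock, 5.18 on both variant 1 arrays, and 6.15 and 5.92 with variant 2, a difference of -0.87 for variant 1 (SE 0.365, limma p 0.0411). hsa-miR-512-3p differed by -0.96 (SE 0.423, limma p 0.0505). All these probes were below background on all 6 arrays, and the adjusted p of each was 0.960.

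Variant 2 was compared with the same mock arrays, so its differences are not independent of those of variant 1. No member and 0% of all tested probes passed the threshold. hsa-miR-498 had a mean of 10.66 ± 0.004 (SD, n = 2) with variant 2, and both arrays lay between the 2 mock arrays. The difference was 0.27 (SE 0.452, 95% interval -0.76 to 1.30), with a limma p of 0.569 and an adjusted p of 0.966, and it was -0.24 without the lower and 0.77 without the higher mock array.

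For variant 2, 5 of 73 members (6.85%) had an unadjusted limma p below 0.05, against 4.79% of all tested probes. They were 2 higher and 3 lower, beside 2.26% higher and 2.54% lower over all tested probes. The arrays did not overlap for 18 members (24.7%), against 33.3% of all tested probes. In 10 members (13.7%) the variant 2 arrays were higher, against 16.4%, and in 8 (11.0%) lower, against 17%. The median difference was 0.08, from -1.24 to 1.08, beside 0.01 over all tested probes, and 40 of 73 members were above 0, against 51.3%.

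The signals of hsa-miR-1283, hsa-miR-524-3p, hsa-miR-516a-3p, hsa-miR-519a* and hsa-miR-519e* are given above. For variant 2, hsa-miR-1283 differed by 1.08 (SE 0.399, limma p 0.0247) and hsa-miR-524-3p by 0.92 (SE 0.380, limma p 0.0391). hsa-miR-516a-3p differed by -1.24 (SE 0.404, limma p 0.0136), hsa-miR-519a* by -1.16 (SE 0.436, limma p 0.0273) and hsa-miR-519e* by -0.91 (SE 0.380, limma p 0.0408). For hsa-miR-519a* the value was -0.70 without the lower variant 2 array and -1.61 without the higher. hsa-miR-518b had 5.92 and 5.27 with mock, 5.27 and 6.06 with variant 1, and 6.33 and 6.86 with variant 2, and its difference for variant 2 was 1.00 (SE 0.455, limma p 0.0560). The smallest adjusted p of any member was 0.938.

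Variant 2 was set against variant 1 to ask whether the T run makes a difference. No member and 0% of all tested probes passed the threshold. hsa-miR-498 was lower with variant 2 by a difference of -0.70 (SE 0.452, 95% interval -1.72 to 0.33), with a limma p of 0.159 and an adjusted p of 0.924, although both variant 2 arrays lay below both variant 1 arrays. The difference of hsa-miR-498 was -0.43 without the higher variant 1 array and -0.96 without the lower.

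In that comparison 5 of 73 members (6.85%) had an unadjusted limma p below 0.05, against 4.96% of all tested probes. They were 4 higher and 1 lower, beside 2.43% higher and 2.54% lower over all tested probes. The arrays did not overlap for 25 members (34.2%), against 35.5%. In 11 members (15.1%) variant 2 was higher, against 17.6%, and in 14 (19.2%) lower, against 17.9%. The median difference was 0.02, from -1.27 to 1.56, beside 0.00 over all tested probes, and 37 of 73 members were above 0, against 50.5%. The median was -0.04 over the mature-named and 0.27 over the precursor-named members.

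hsa-miR-512-3p, with the signals given above, was higher with variant 2 on both arrays and differed by 1.26 (SE 0.423, limma p 0.0161). hsa-miR-518f* had 6.60 and 6.30 with mock, 5.76 and 6.19 with variant 1, and 6.87 and 7.09 with variant 2, a difference of 1.01 between the variants (SE 0.385, limma p 0.0287). hsa-miR-516a-5p differed by 0.85 (SE 0.365, limma p 0.0446). All 3 had an adjusted p of 0.924.

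Of the probes lower with variant 2, hsa-miR-519b-3p had 6.99 and 5.70 with mock, 6.52 and 7.07 with variant 1, and 5.72 and 5.34 with variant 2, a difference of -1.27 between the variants (SE 0.501, limma p 0.0330). hsa-miR-518d-3p had 6.20 and 5.59 with mock, 6.73 and 6.18 with variant 1, and 4.01 and 6.52 with variant 2, a difference of -1.19 (SE 0.729, limma p 0.138). Its value rested on 1 variant 2 array, at 4.01, without which the difference was 0.064. hsa-mir-519a-2-P had 5.11 and 6.52 with mock, 6.48 and 6.20 with variant 1, and 6.16 and 4.39 with variant 2, a difference of -1.06 (SE 0.655, limma p 0.140). This value also rested on 1 variant 2 array, at 4.39, without which it was -0.18, and without the other variant 2 array it was -1.95. None of these passed the threshold after adjustment.

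Several members could be checked against probes named for the same molecule, because 13 mature-named probes fell into 4 sets of identical RefSeq sequence. The probe sequences themselves were not used here. A set of 6 probes shared the sequence printed above for miR-519a-5p, namely hsa-miR-518e*, hsa-miR-519a*, hsa-miR-519b-5p, hsa-miR-519c-5p, hsa-miR-522* and hsa-miR-523*. Their differences for both variants against mock ran from -0.98, that of hsa-miR-519a*, to 0.74, that of hsa-miR-518e*, and 3 of 6 were above 0. hsa-miR-519b-5p was lower as well, by a difference of -0.62. hsa-miR-526a shared its sequence with hsa-miR-518d-5p and hsa-miR-520c-5p, whose differences were -0.11 and 0.29, beside 0.76 for hsa-miR-526a itself.

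hsa-miR-516a-3p and hsa-miR-516b* are named for 1 sequence, and their differences for both variants were -0.999 and -0.13. For variant 1 both were lower, at -0.75 and -0.32, and for variant 2 the values were -1.24 and 0.06. hsa-miR-517a and hsa-miR-517b, also named for 1 sequence, gave 0.23 and -0.23 for both variants. The pooled SD of the signals of same-sequence probes on the same array was 0.517, with 54 degrees of freedom. Over all 56 mature-named members other than hsa-miR-498 the SD on an array was 0.466 to 0.615. Probes named for the same molecule were thus about as far apart on an array as these 56 members.

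**Figure D5:**
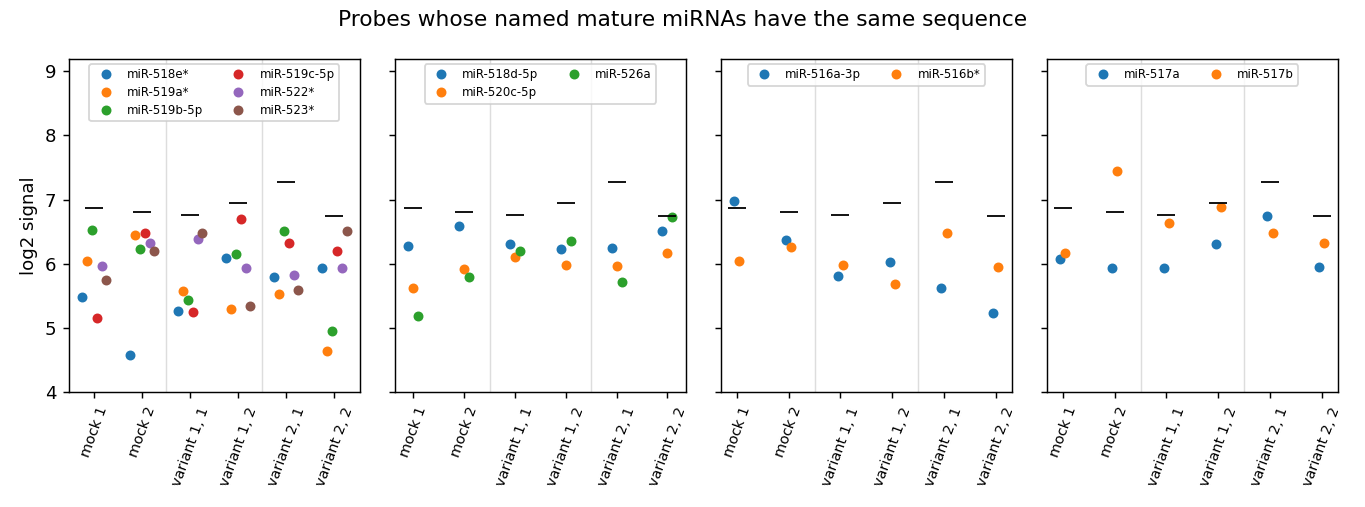
Log2 signal on each of the 6 arrays (horizontal axis) of probes whose named mature miRNAs have the same RefSeq sequence, in 1 panel per set, with the random-sequence 95th percentile of each array as a black bar. Within a set the points of an array spread with a pooled SD of 0.517.

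The other miRNA lists gave no call either. None of the 12 outside probes whose mature miRNA carries the seed of miR-17 or of miR-372, of the 6 probes of the miR-371 cluster, or of the epithelial, intestinal, haematopoietic, muscle and pluripotent cell probes passed the limma threshold in any of the 4 comparisons. For both variants against mock, the median difference was -0.34 over the 12 outside probes. It was -0.12 over all 24 probes for the same miRNA names, star and precursor-named forms included. With such forms also included, it was -0.05 over the miR-371 cluster and 0.08 over the pluripotent cell probes, beside 0.03 over the C19MC members. The 6 outside probes with the miR-17 seed, which were above background, ran from -0.81 to -0.34 with a median of -0.55. All were below 0, beside 49.4% of all tested probes above 0. The 4 small nucleolar RNA control probes, also above background, likewise had lower means with the variants than with mock. These were 11.86 against 12.42 for U44L, 9.92 against 10.66 for U44R, 12.06 against 12.65 for U48L and 9.84 against 10.15 for U48R. The spacer probe, above background as well, was higher, at 12.09 against 11.72. Whether these shifts share a source was not tested. The 6 probes with the miR-17 seed are not independent replicates, and the smallest limma adjusted p among them was 0.975.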

How the data were processed

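Per the labels' protocols, 4 µg of total RNA from every sample was reverse transcribed from random octamer primers that carried biotin. The deposited values are log2 signals that the authors had normalized before deposit. The log base was taken from the highest values, which end where a scanner saturates. The submitters' processing notes name limma. How background was corrected and arrays were normalized is not given in the sources used here.

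A single fit with limma 3.58.1 in R 4.3.3 estimated the mean of each group from the 6 arrays, with 3 residual and 5.71 prior degrees of freedom. Two-sided p-values received Benjamini-Hochberg adjustment over 1773 probes, 1741 for human miRNAs and 32 for ultraconserved regions, at a threshold of 0.05. No probe was removed for low signal. Mouse (1084), mismatch (93) and random-sequence (38) probes were not tested. The number of arrays limits the precision.

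Members, lists and the background definition were chosen with earlier results of these data known. Named probes were those above background, the 10 brightest, all of miR-512, miR-498, miR-1283 and miR-527, the brightest of each seed group with at least 3 probes, and the 3 higher and 3 lower members with the smallest p per comparison. hsa-miR-516b*, hsa-miR-517a, hsa-miR-518d-5p and hsa-miR-520c-5p were added for sharing a sequence with a named probe. Sequences and positions are from RefSeq, GRCh38.p14. Alternatives varied the variance prior, normalization, array weights, probes tested and arrays left out.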

Additional observations from a re-analysis of the deposited data

How the results depend on the processing

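No C19MC member passed the threshold in any of the 4 comparisons under an alternative that kept all 6 arrays. In the alternative limited to probes above background on all arrays, hsa-miR-498 was the only member tested. For both variants against mock, the other alternatives with 6 arrays gave 3 to 5 members with an unadjusted limma p below 0.05. Over all tested probes, 1 probe, no C19MC member, passed for both variants against mock with a trended variance prior (limma adjusted p 0.0469), and none did otherwise. hsa-miR-498 was the single member above background with the 90th percentile, with the highest random-sequence probe, with 4 of 6 arrays required and without any 1 array. Of 297 alternative values for 27 named differences, 295 kept their direction. The variance priors and array weights left each difference unchanged, as did leaving out an array of a group outside the comparison. Most of the 27 were also picked for a small p in these data, so the count is no measure of robustness. The 2 values that turned belonged to hsa-miR-498 for variant 2 against mock and to hsa-miR-518d-3p between the variants. The former was -0.24 without the first mock array, and the latter 0.064 without the first variant 2 array. Leaving out 1 array at a time gave a range of -0.24 to 0.77 for the former and -2.45 to 0.064 for the latter. The median difference of the members ran from -0.026 to 0.11 for variant 1 and from -0.045 to 0.17 for variant 2 when single arrays were left out. Over the precursor-named members alone it was -0.079 for variant 1 against mock and 0.27 between the variants. The cause of these movements was not tested. No paired analysis was possible because the labels give no replicate numbers. Of the 73 members, 58 were below background on all 6 arrays and 14 on at least 3, so their differences compare signals and are no measure of a change in the miRNA.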
